A study of Mus musculus with 19 samples.

Results

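The cytosolic ribosomal protein genes encode the proteins of the large and small ribosomal subunits. They were taken by symbol from the 24421 gene symbols of the deposited count tables: 85 symbols matched the names of ribosomal proteins (Rpl and Rps with a number and the common suffixes, the stalk genes Rplp0, Rplp1 and Rplp2, and Rpsa and Fau), and 81 of these reached a count of 10 in at least 3 libraries of each cell type. Of the 81 members, 47 belong to the large and 34 to the small subunit. The rule used only names and a count minimum, not a difference between groups. The members left out were Rpl10l, with 0 counts in every library, Rpl3l, with 0 to 5 counts, Rpl39l, with 0 to 12, and Rpl26, with 0 to 21.

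The RNA came in bulk from conventional dendritic cells that had been sorted out of spleens of C57BL6 animals. Of their kinds, cDC1 cells present antigen mainly to CD8 T cells and cDC2 cells mainly to CD4 T cells. Each subset was labelled wild type (WT), Xbp1 KO, from a mouse line deficient in Xbp1, or Xbp1-Ire1 KO, from a line deficient in Xbp1 and in Ire1a (gene Ern1). There were 19 libraries, 4 in cDC2 WT and 3 in each of the 5 other groups. The sources used here do not give the driver of the deletions, the deleted exons or the age of the mice. Nor do they tie replicates to separate mice. The p-values below therefore set group differences against the spread of these samples only, and that spread may be technical. The WT libraries carried 2 kinds of description name: cDC1 replicates 1 and 2 and cDC2 replicates 1 and 2 were named fl-fl, and cDC1 replicate 3 and cDC2 replicates 3 and 4 were named WT.

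Most ribosomal proteins are present in equal numbers per ribosome, and ribosomal protein mRNAs are among the most abundant and most evenly expressed of the cell. In mammals most of these mRNAs begin with a cytosine followed by a run of pyrimidines, the terminal oligopyrimidine tract, through which mTORC1 and the RNA-binding protein LARP1 regulate their translation and storage together. IRE1 is the sensor of unfolded proteins in the endoplasmic reticulum whose RNase splices Xbp1 mRNA so that it encodes an active transcription factor. The same RNase can cut other mRNAs, and in cDC1 loss of Xbp1 is known to leave it overactive.

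The start of the transcript is the sequence that these genes are known to share, and it is shown here for 5 members with a long pyrimidine run and 5 without one. Windows of 30 bases, 10 before and 20 from the annotated RefSeq start (GRCm38.p6), are given 5′ to 3′ on the gene's strand, with the longest run of C and T in capitals. Of those with a long run, Rpl14 and Rpl28 led the difference between the cell types, Rpl35 and Rpl7a had the longest runs of the 15 windows read, and Rps6 is the small subunit protein that S6 kinase phosphorylates.
Rpl14, chr9:120571507-120571536, plus strand: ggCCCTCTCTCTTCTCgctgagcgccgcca
Rpl28, chr7:4792955-4792984, plus strand: tctcgtgTCTCTCTTTCCgtctccggccgc
Rpl35, chr2:39005112-39005141, minus strand: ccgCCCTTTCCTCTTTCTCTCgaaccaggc
Rpl7a, chr2:26910797-26910826, plus strand: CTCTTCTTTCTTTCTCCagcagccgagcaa
Rps6, chr4:86857348-86857377, minus strand: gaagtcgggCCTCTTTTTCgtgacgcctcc
Rpl10, which led the difference between the cell types with Rpl14 and Rpl28, is not shown. Its longest run was 3 in the window and 10 within 50 bases of the start. The windows shown were picked, and a link of the run to the calls was not tested. The members shown without a long run in the same window are genes that were called between the genotypes of cDC1.
Rpl6, chr5:121204491-121204520, plus strand: aCCTCCCgtcattgcttatagaccggaagc
Rps19, chr7:24884582-24884611, plus strand: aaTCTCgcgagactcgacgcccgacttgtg
Rpsa, chr9:120127756-120127785, plus strand: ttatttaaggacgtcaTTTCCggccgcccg
Rpl4, chr9:64173377-64173406, plus strand: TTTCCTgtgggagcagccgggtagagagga
Rpl5, chr5:107900518-107900547, plus strand: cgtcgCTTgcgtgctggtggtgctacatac
A run of at least 10 pyrimidines on the sense strand, within 50 bases of the start, was found in 43 of the 60 members with a RefSeq entry (71.7%), against 20.7% of 17491 protein-coding genes. It was found in 29 of 35 large subunit and 14 of 25 small subunit members. On the opposite strand such a run was found in 8 of the 60 members (13.3%), against 20.5% of all genes, so the excess lay on the sense strand. Annotated starts can lie some bases away from those used in these cells. Within 50 bases of the start Rpl4 did hold a run of 15, and Rpl6 and Rps19 runs of 11, while the longest in Rpl5 was 9 and in Rpsa 7.

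In the 300 bases around the same starts, 250 before and 50 after, letters of known promoter elements were searched on both strands. The core CGGAAG of ETS factors stood in 40 of 60 members (66.7%) and in 23.5% of all genes. AAGATGG, the core of the YY1 motif, stood in 11 members (18.3%) and in 7.18% of genes, and GGGCGG, the box of SP1, in 39 (65%) and in 49.2%. CACGTG, the E-box bound by MYC, stood in 6 members (10%) and in 8.91% of genes, and TATAAA in 7 (11.7%) and in 14.8%. These are matches of letters and not measured binding.

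Total counts ranged from 10.6 to 16.2, in units of 1e6, over the libraries, and all 81 members entered each fit. Levels are given as CPM, counts per 1e6 counts. In cDC1, Xbp1 itself had 240, 150 and 147 CPM (WT), 99.0, 92.9 and 117 CPM (Xbp1 KO) and 359, 346 and 312 CPM (Xbp1-Ire1 KO). In cDC2 it ranged over 70.3 to 154 CPM (WT), 40.8 to 55.7 CPM (Xbp1 KO) and 55.9 to 76.0 CPM (Xbp1-Ire1 KO). Ern1 had 52.3 to 72.6 CPM in cDC1 Xbp1-Ire1 KO and at most 29.9 CPM in cDC1 WT. Gene counts include exons outside a deletion, so these levels do not check the genotype labels. The 9 cDC1 markers summed to at least 8755 CPM in the cDC1 libraries and at most 1377 CPM in the cDC2 libraries, and the 9 cDC2 markers to at most 106 and at least 2489 CPM, so these sums separated the cell types as labelled.

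Some libraries stood apart in the ribosomal protein genes and are named here before the comparisons. In cDC1 Xbp1 KO, replicate 3 had the highest level of its group for 79 of the 81 members, with a median deviation from the group mean of 0.35 on the log2 scale, while it was highest for 37.0% of all tested genes. In cDC1 Xbp1-Ire1 KO, replicate 2 had the lowest level for 79 of 81 members, with a median deviation of -0.36, while it was lowest for 36.1% of all genes. In cDC2 Xbp1 KO, replicate 3 was highest for 67 members, with a median deviation of 0.15, while it was highest for 34.2% of all genes. In cDC2 WT, replicate 1 was highest for 57 members and replicate 4 lowest for 50, with median deviations of 0.24 and -0.23, against 24.9% and 21.8% of all genes. In cDC2 Xbp1-Ire1 KO, replicate 1 was highest for 61 members, with a median deviation of 0.18, against 30.3% of all genes. In cDC1 Xbp1 KO replicate 3, the 18 listed pancreatic acinar transcripts had a joint 2183 CPM, while no other library exceeded 11.4 CPM. Their part in the ribosomal values was not tested. In cDC1 Xbp1-Ire1 KO, marker sums of 3 other cell types lay above both other cDC1 groups without overlap. The 7 neutrophil markers in the tables summed there to 17.9 to 59.8 CPM, beside at most 8.74 (WT) and 12.8 (Xbp1 KO), and the 6 NK cell markers to 3.04 to 5.86 CPM, beside at most 2.27 and 2.12. The 8 markers of plasmacytoid dendritic cells summed to 152 to 201 CPM, beside at most 117 and 129. These 8 did not rise together: over WT 1 was called higher and 2 lower, with a median log2 fold change of -0.02. Over Xbp1 KO 2 were called higher and 0 lower, with a median of -0.48. Of the 9 cDC1 markers, 5 fell in that group over Xbp1 KO and 2 over WT, and their sum was 8954 to 10850 CPM, overlapping both other groups. The part of these markers in the ribosomal values was not tested. Among red pulp macrophage markers, 10 genes, the sum ranged from 180 to 940 CPM over the cDC1 and from 502 to 2079 CPM over the cDC2 libraries. The deviation of a library also went with transcript length across 80 members, with a Spearman coefficient from -0.59 in cDC1 Xbp1-Ire1 KO replicate 1 to 0.49 in replicate 2 of that group. These coefficients are descriptions across genes of the same library, and the part of transcript length in the comparisons was not tested.

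The members differed far more from each other than between groups. Scaled for length, as mean CPM per kb of merged exons over the 19 libraries, the median was 153 for the large and 187 for the small subunit genes. Among the highest were Rps3a1, a small subunit gene, at 866 CPM per kb, Rplp0, the base of the stalk, at 754, Rpl32 at 694 and Rplp1, a stalk protein, at 670. The lowest were the paralogs Rps4l at 18.1 and Rpl22l1 at 15.1 CPM per kb, then Rpl34 at 2.46, Rps27 at 1.42 and Rpl30 at 0.348. The last 3 genes encode standard ribosomal proteins, so their counts are set beside the sequence they share with other loci.

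Rpl30 had 0 to 31 counts per library, Rps27 5 to 39 and Rpl34 39 to 164. A median of 60.6% of the 50-base words in a member's principal transcript also occurred in another gene, pseudogenes included, and 52 of 80 members had more than 50% shared words. For the low genes the shared percentage was 98.6% in Rps27, the highest of all, 76.4% in Rpl30 and 50.6% in Rpl34. Rpl35 (95.1%) and Rpl5 (93.8%) shared nearly as much as Rps27 and stood at 280 and 79.3 CPM per kb. The sources used here do not name the counting program, and how it treated reads that map to several places is unknown. Levels of members are therefore uncertain, and differences of the same member between groups are the firmer quantity. Across members the Spearman coefficient between the length-scaled level and the shared percentage was -0.01. With the length of the principal transcript in place of merged exons the medians were 367 and 458 CPM per kb.

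**Figure D1:**
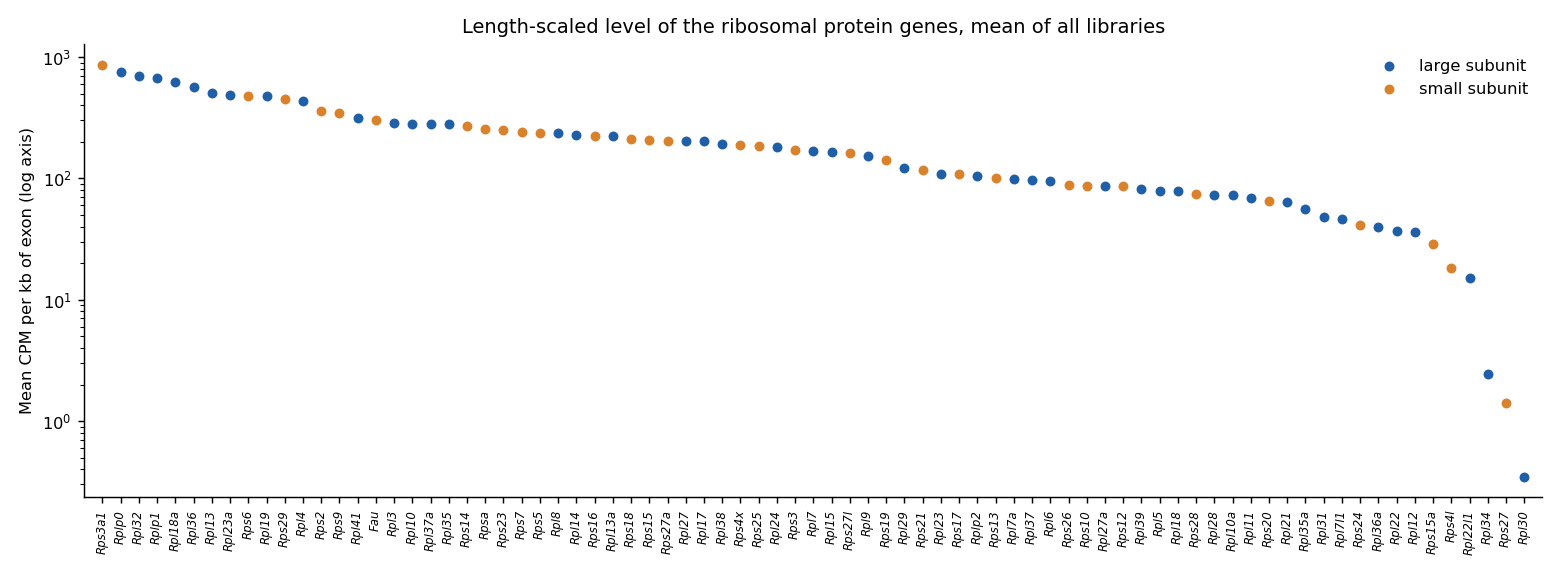
Mean level of 79 of the 81 members over 19 libraries, in CPM per kb of merged exons on a log axis, in order of level, with large subunit genes in blue and small subunit genes in orange. Levels run from 866 for Rps3a1 to 0.348 for Rpl30, and Rpl34, Rps27 and Rpl30 lie far below the rest.

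In most members the level was highest in cDC1 cells labelled Xbp1-Ire1 KO and lowest in cDC2 cells labelled Xbp1 KO. The group mean was highest in cDC1 Xbp1-Ire1 KO for 44 of 47 large and 33 of 34 small subunit genes, and lowest in cDC2 Xbp1 KO for 40 and 30 of them. In the heat map the columns of cDC1 Xbp1-Ire1 KO replicates 1 and 3 and of cDC1 Xbp1 KO replicate 3 are the most uniformly raised.

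**Figure D2:**
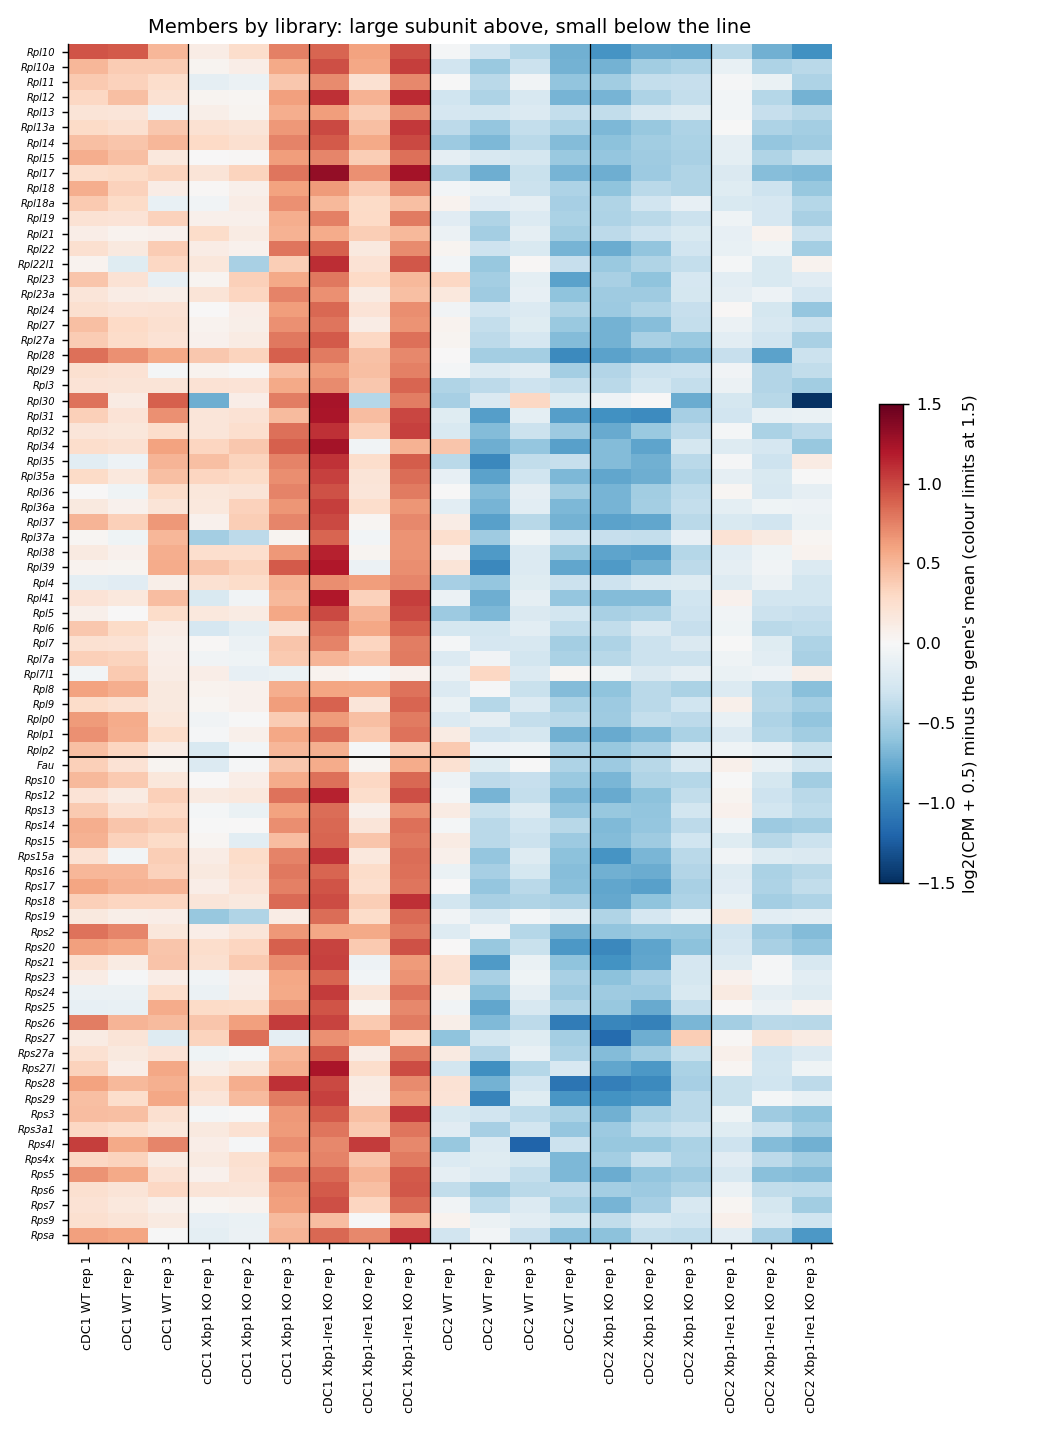
log2(CPM + 0.5) of 79 of the 81 members, each minus its mean over the 19 libraries, with 1 row per gene (large subunit above the line, small below) and 1 column per library, coloured from blue (lower) through white to red (higher) with colour limits at 1.5. The 9 cDC1 columns on the left are redder than the 10 cDC2 columns on the right in nearly every row.

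As a share of all counts, the large subunit genes took 1.74, 1.75 and 1.74% in the cDC1 WT libraries, 1.63, 1.68 and 2.21% in Xbp1 KO and 2.65, 2.05 and 2.58% in Xbp1-Ire1 KO. The small subunit genes took 1.45, 1.44 and 1.43% in the same WT libraries, 1.27, 1.33 and 1.81% in Xbp1 KO and 2.20, 1.57 and 2.12% in Xbp1-Ire1 KO. All 3 Xbp1-Ire1 KO libraries lay above all WT libraries for both subunits, and the Xbp1 KO libraries fell on either side of WT. In cDC2 the large subunit share was 1.15 to 1.49% (WT), 1.11 to 1.26% (Xbp1 KO) and 1.22 to 1.48% (Xbp1-Ire1 KO). The small subunit share in cDC2 was 0.886 to 1.23%, 0.813 to 0.963% and 0.951 to 1.18% in the same order. The 3 cDC2 groups overlapped for both subunits.

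**Figure D3:**
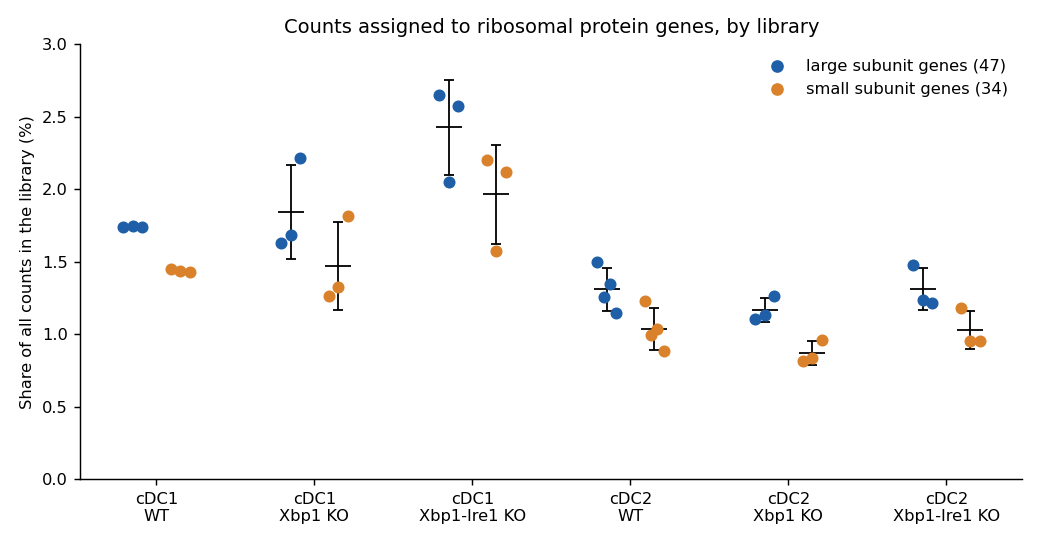
Share of all counts of a library assigned to the 47 large (blue) and 34 small (orange) subunit genes, in percent, with 1 point per library and the mean and SD of each group in black. The cDC1 libraries run from 1.63 to 2.65% for the large subunit and the cDC2 libraries from 1.11 to 1.49%.

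The balance of the subunits moved little. The ratio of large to small subunit counts was 1.21 ± 0.0093 (SD, n = 3) in cDC1 WT, 1.26 ± 0.035 (n = 3) in cDC1 Xbp1 KO and 1.24 ± 0.052 (n = 3) in cDC1 Xbp1-Ire1 KO. It was 1.27 ± 0.037 (n = 4) in cDC2 WT, 1.34 ± 0.029 (n = 3) in cDC2 Xbp1 KO and 1.27 ± 0.023 (n = 3) in cDC2 Xbp1-Ire1 KO. The cDC2 Xbp1 KO libraries, at 1.31 to 1.36, were the highest and lay above every other cDC2 library, which stopped at 1.30. Over all 19 libraries the ratio ran from 1.20 to 1.36, while the joint share of both subunits ran from 1.92 to 4.85% of counts.

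Between the cell types the ribosomal protein genes were higher in cDC1, and in none of the 3 genotypes was a member called lower. A gene is called here at an adjusted p under 0.05 in the quasi-likelihood test of edgeR, with the Benjamini-Hochberg adjustment made over all tested genes. In WT cells 59 of 81 members rose in cDC1 over cDC2 (36 of 47 large, 23 of 34 small), where 40.8% of all 12185 genes were called, 20% higher and 20.7% lower. In Xbp1 KO cells 74 rose (42 large, 32 small), with 39.1% of all genes called, 18.4% higher and 20.8% lower, and in Xbp1-Ire1 KO cells 76 rose (43 large, 33 small), with 42.6% called, 20.5% higher and 22.1% lower. The median log2 fold change was 0.58 for large and 0.68 for small subunit genes in WT, 0.76 and 0.88 in Xbp1 KO, and 0.89 and 1.01 in Xbp1-Ire1 KO. The medians of all tested genes were -0.04, -0.03 and -0.04. The groups of libraries did not overlap, with cDC1 higher, for 62, 73 and 71 members in the same order, against 20.5%, 26.5% and 25.4% of all genes. In bulk RNA, fewer cells of a kind and less of an mRNA per cell cannot be told apart, here and in what follows.

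The leading members of this comparison came from both subunits. Rpl14, of the large subunit, stood at 472, 458 and 487 CPM in cDC1 WT and at 236, 215, 261 and 219 in cDC2 WT, without overlap. Its log2 fold change was 1.02 (SE 0.14, edgeR adjusted p = 4.99e-06). Rpl10, an X-linked gene whose protein joins the large subunit last, differed by 1.14 (SE 0.17) and Rpl28 by 1.15 (SE 0.18). Rps2, of the mRNA entry channel, differed by 0.92 (SE 0.17), and Rps4l by 1.36 (SE 0.23) at levels of 22.9 to 31.8 CPM in cDC1 WT and 6.35 to 13.2 in cDC2 WT.

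Rpl14 and Rpl10 were also among the leaders in both knockout genotypes, and other genes joined them. In Xbp1 KO cells Rps26, of the mRNA exit channel, stood at 161, 186 and 250 CPM in cDC1 and at 61.1, 59.7 and 74.7 in cDC2, a log2 fold change of 1.61 (SE 0.23, adjusted p = 8.02e-06). In Xbp1-Ire1 KO cells Rpl17, of the rim of the exit tunnel, stood at 599, 385 and 570 CPM in cDC1 and at 206, 154 and 151 in cDC2, a log2 fold change of 1.60 (SE 0.18, adjusted p = 5.32e-07). Rps6, the ribosomal protein phosphorylated by S6 kinase, differed there by 1.06 (SE 0.14). Called higher in cDC1 in all 3 genotypes were 58 members, 35 large and 23 small. The 4 members never called were Rpl30 and Rps27, with few counts, Rpl37a and the paralog Rpl7l1.

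**Figure D4:**
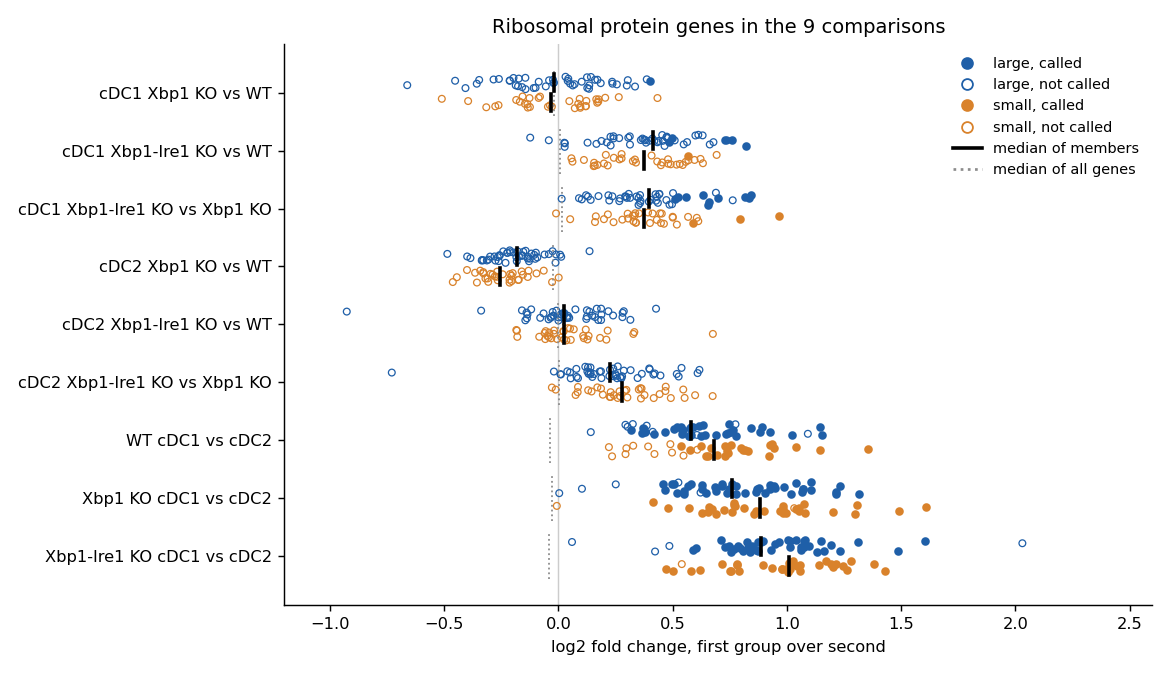
log2 fold change of each member in the 9 comparisons, the group named first over the group named second, with large subunit genes in blue and small subunit genes in orange, filled where called at an adjusted p under 0.05. Black bars are the medians of each subunit and dotted grey lines the median of all tested genes; the cell type comparisons at the bottom lie right of 0 and the cDC2 genotype comparisons hold no filled point.

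Among the cDC1 genotypes, a minority of ribosomal protein genes was called, each of them higher in Xbp1-Ire1 KO than in WT or Xbp1 KO, while the fold changes of most members lay above 0. Against WT, 6 of 81 members rose and 0 fell (7.75% of all 11353 genes called, 3.04% higher and 4.71% lower), 5 of them large subunit genes. The 39 members at an unadjusted p under 0.05 compare with 22.5% of all genes. The medians were 0.41 for large and 0.37 for small subunit genes, that of all genes 0.01, and 79 of 81 fold changes were above 0. Against Xbp1 KO, 13 members rose and 0 fell (12.7% called, 7.13% higher and 5.52% lower), 10 of them large, with 41 members at an unadjusted p under 0.05 (28.5% of all genes) and medians of 0.40 and 0.37 beside 0.02 for all genes. The share of members called was 7.41% against WT, near the share of all genes called, and 16.05% against Xbp1 KO, and it depended on single libraries, whose effect is given further on. The groups did not overlap, with Xbp1-Ire1 KO higher, for 25 members against WT (12.5% of all genes) and for 9 against Xbp1 KO, a share below the 17.3% of all genes.

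Rpl4, whose loop reaches into the exit tunnel, followed the genotypes in order. It had 758, 743 and 891 CPM in the cDC1 WT libraries, 978, 1009 and 1199 CPM in the Xbp1 KO and 1359, 1289 and 1393 CPM in the Xbp1-Ire1 KO libraries, with no overlap between the groups. Its log2 fold change was 0.76 in Xbp1-Ire1 KO over WT (SE 0.12, edgeR adjusted p = 0.00178) and 0.40 in Xbp1 KO over WT (SE 0.12, adjusted p = 0.049). The first call held in all 20 alternative settings and the second was lost in 10 of 20. Rpl5, which with Rpl11 carries the 5S rRNA into the large subunit and can bind MDM2, stood at 310, 294 and 354 CPM in WT and at 583, 416 and 582 in Xbp1-Ire1 KO, a log2 fold change of 0.73 (SE 0.16, adjusted p = 0.0142). Rpl17 differed by 0.82 (SE 0.18, adjusted p = 0.0142). Rpl6 and Rpl3 passed narrowly, at 0.50 (adjusted p = 0.0486) and 0.49 (adjusted p = 0.0496).

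Rpl6 and Rps19 led the comparison of the knockouts. Rpl6, of the large subunit, had 378, 351 and 311 CPM in the cDC1 WT libraries, 240, 259 and 325 CPM in the Xbp1 KO and 505, 428 and 530 CPM in the Xbp1-Ire1 KO libraries. Its log2 fold change between the knockouts was 0.84 (SE 0.14, adjusted p = 0.00207). Rps19, a small subunit protein of the head whose human gene is mutated in Diamond-Blackfan anaemia, stood at 706, 676 and 682 CPM in WT, at 429, 464 and 688 in Xbp1 KO and at 1134, 767 and 1150 in Xbp1-Ire1 KO. It differed between the knockouts by 0.96 (SE 0.19, adjusted p = 0.00493). Both calls held in all 18 alternative settings.

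The other calls between the knockouts were less firm. Rpsa, the ribosomal protein also known as the laminin receptor, had 679, 708 and 1065 CPM in the cDC1 Xbp1 KO and 1362, 1239 and 1612 CPM in the Xbp1-Ire1 KO libraries, a log2 fold change of 0.80 (SE 0.20, adjusted p = 0.0188). Its WT libraries differed by name, 1150 and 1132 CPM in the fl-fl named and 750 in the WT-named library. Rpl10a differed by 0.63, Rpl41, the shortest ribosomal protein, by 0.82 and Rps15 by 0.59, with adjusted p of 0.0209, 0.0267 and 0.0365. Each of these 4 calls was lost in 5 of 18 settings. Rplp0 differed by 0.52 (adjusted p = 0.0437) and Rpl7 by 0.51 (adjusted p = 0.0465), and the remaining calls were Rpl12, Rpl17, Rpl31, Rpl37a and Rpl5.

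**Figure D5:**
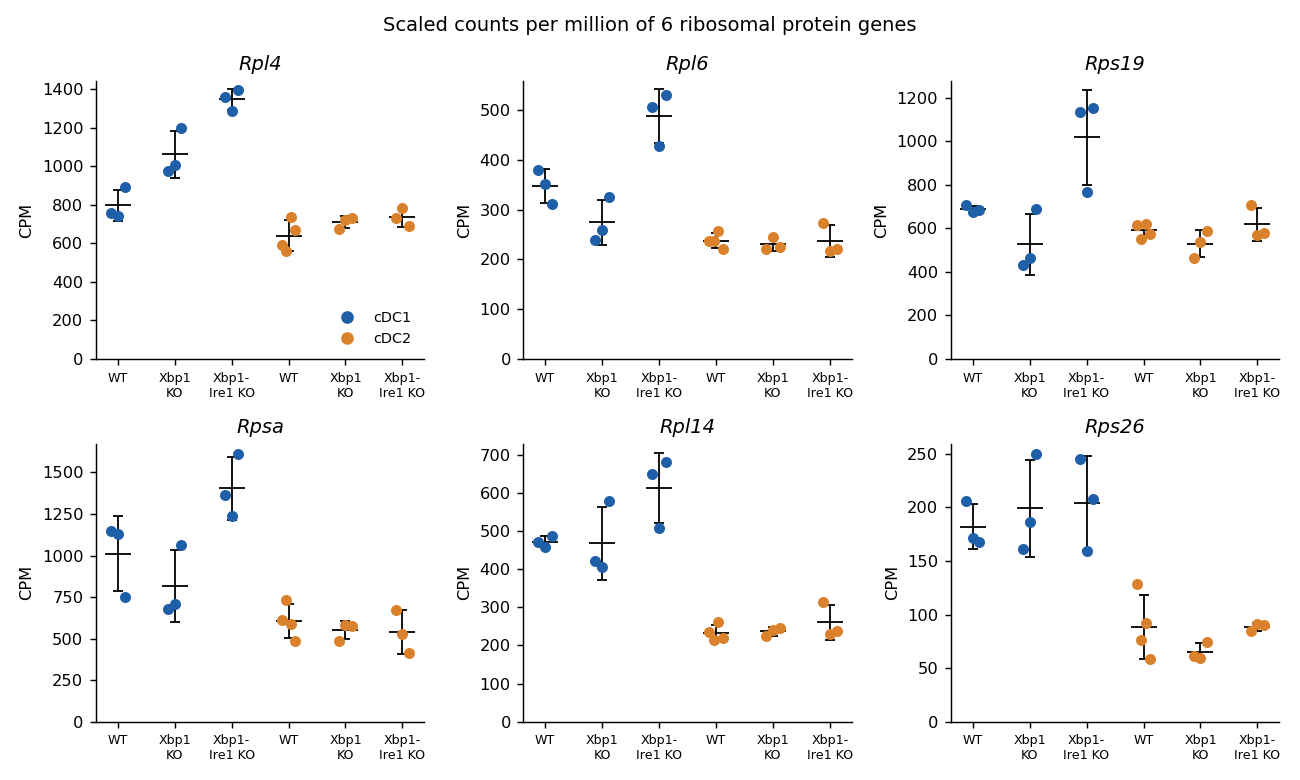
CPM, scaled by TMM over all 19 libraries, of 6 members in the 6 groups, with 1 point per library (cDC1 blue, cDC2 orange) and the mean and SD of each group in black. Rpl4 climbs across the cDC1 genotypes from 743 to 1393 CPM, Rpl6 and Rps19 are low in the first 2 cDC1 Xbp1 KO libraries, and Rpl14 and Rps26 separate the cell types.

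Between cDC1 Xbp1 KO and WT the members did not shift together. Of the 81 members Rpl4 alone was called, higher (11.2% of all 11353 genes called, 4.28% higher and 6.91% lower). There, 39 fold changes were above and 42 below 0, and the medians were -0.02 for large and -0.03 for small subunit genes, as for all genes (-0.02). This even picture rested on Xbp1 KO replicate 3. Without that library the medians were -0.18 and -0.23 beside -0.02 for all genes, Rpl4 was no longer called, and Rpl10 (-0.61, SE 0.17, adjusted p = 0.0453) and Rps19 (-0.62, SE 0.17, adjusted p = 0.0458) fell, with 7.69% of all genes called. Without WT replicate 3, which leaves the fl-fl named libraries, 6 members were called: Rpl4 and Rpl35 higher, and Rpl10, Rpl6, Rplp0 and Rps2 lower. These are 7.41% of the members, where 25.2% of all genes were called. Against the WT-named library alone 0 were called, beside 2.82% of all genes.

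Leaving out the same libraries moved the Xbp1-Ire1 KO comparisons too. Without Xbp1-Ire1 KO replicate 2 the members called higher over WT rose in number from 6 to 30, while the share of all genes called went from 7.75% to 6.30%. Without Xbp1 KO replicate 3 the calls between the knockouts went from 13 to 37, with medians of 0.57 and 0.54, while the share of all genes went from 12.7% to 11.1%. Without Xbp1-Ire1 KO replicate 1 or 3 the count over WT was 1, beside 3.70% and 3.97% of all genes, and over Xbp1 KO it was 2, beside 6.10% and 6.69%. Without WT replicate 1, 2 or 3 the calls over WT numbered 1, 2 and 16, beside 3.95%, 5.19% and 17% of all genes. Without Xbp1 KO replicate 1 or 2 the calls between the knockouts numbered 2, beside 5.66% and 5.58%. Against WT of each name the medians were 0.40 for large and 0.32 for small subunit genes (fl-fl) and 0.45 and 0.44 (WT-named, 1 library). The direction over the members stayed the same in each of these fits, with medians over WT from 0.26 to 0.57, while the number of calls did not.

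In cDC2 cells 0 members were called in any of the 3 genotype comparisons, by edgeR or by DESeq2. Few of all 11646 genes were called either: 0.103% for Xbp1 KO over WT (0.0687% higher, 0.0343% lower), 0.0258% for Xbp1-Ire1 KO over WT (0.0258% higher, 0% lower) and 0.0343% between the knockouts (0.0258% higher, 0.00859% lower). At an unadjusted p under 0.05 stood 6, 1 and 12 members, against 9.68%, 7.53% and 8.24% of all genes. Fold changes in Xbp1 KO over WT were below 0 for 77 of 81 members, with medians of -0.18 for large and -0.26 for small subunit genes beside -0.02 for all genes. Between the knockouts 77 were above 0, with medians of 0.23 and 0.28, and for 30 members the knockout groups did not overlap (8.91% of all genes). In Xbp1-Ire1 KO over WT the medians were 0.03 and 0.02.

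The largest fall of a single member in cDC2 Xbp1 KO over WT was that of Rpl10, beyond the medians of both subunits. Rpl10 stood at 505, 422, 382 and 313 CPM in cDC2 WT and at 279, 303 and 299 in Xbp1 KO. It was the single member lower there without overlap (5.15% of all genes), but its log2 fold change of -0.49 (SE 0.16) had an adjusted p of 0.471. Its fl-fl named WT libraries, the first 2, were above the WT-named pair. Against the fl-fl named libraries Rpl10 (-0.69, adjusted p = 0.0181), Rplp2 (-0.61, adjusted p = 0.0467) and Rps2 (-0.48, adjusted p = 0.0491) fell in Xbp1 KO, 3.70% of the members where 6.21% of all genes were called. Against the WT-named libraries 0 members and 0.0508% of all genes were called. The medians for Xbp1 KO over WT were -0.26 and -0.34 against the fl-fl named and -0.10 and -0.14 against the WT-named libraries. For Xbp1-Ire1 KO over WT they were -0.03 and -0.08 against the former and 0.11 and 0.13 against the latter.

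Whether a genotype acted differently in the 2 cell types was tested as an interaction over all 19 libraries. For Xbp1 KO over WT 0 members were called by edgeR or DESeq2 (2.17% of all genes by edgeR, 0.328% higher and 1.84% lower) and 0 stood at an unadjusted p under 0.05 (12.9% of all genes). For Xbp1-Ire1 KO over WT 0 were called by edgeR (2.23% of all genes, 0.755% higher and 1.48% lower) and 1, Rpl4, by DESeq2, with 13 at an unadjusted p under 0.05 (12.5% of all genes) and medians of 0.31 and 0.29. For Xbp1-Ire1 KO over Xbp1 KO 1 member was called (2.14% of all genes, 1.82% higher and 0.32% lower), and 5 stood at an unadjusted p under 0.05 (13.2% of all genes). This was Rpl6, whose change was larger in cDC1 by 0.79 (SE 0.19, adjusted p = 0.0264). In cDC2, Rpl6 ranged over 220 to 256 CPM (WT), 221 to 245 CPM (Xbp1 KO) and 217 to 274 CPM (Xbp1-Ire1 KO), all overlapping. The Rpl6 call was lost in 7 of 28 settings, each of which left out 1 knockout library, cDC1 Xbp1 KO replicate 1 or 2, cDC1 Xbp1-Ire1 KO replicate 1 or 3, cDC2 Xbp1 KO replicate 2, or cDC2 Xbp1-Ire1 KO replicate 2 or 3, with log2 differences of 0.70 to 0.77. Without Xbp1 KO replicate 3 or Xbp1-Ire1 KO replicate 2 Rps19 was called as well.

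The stalk and the 5S particle are parts of the large subunit with roles of their own. Rplp0, Rplp1 and Rplp2 form the stalk that recruits the elongation factors. Of these 3, Rplp0 rose in cDC1 Xbp1-Ire1 KO over Xbp1 KO and none was called against WT, while 2, 3 and 2 were called higher in cDC1 in WT, Xbp1 KO and Xbp1-Ire1 KO cells. Rplp0 had 1864, 1756 and 1339 CPM in the cDC1 WT libraries, 1151, 1188 and 1559 CPM in the Xbp1 KO and 1857, 1635 and 2053 CPM in the Xbp1-Ire1 KO libraries. Of the 5S particle Rpl5 was called in both Xbp1-Ire1 KO comparisons of cDC1. Rpl11, its partner, had 237, 228 and 216 CPM in the cDC1 WT libraries, 164, 169 and 239 CPM in the Xbp1 KO and 293, 210 and 297 CPM in the Xbp1-Ire1 KO libraries and was called in neither, with adjusted p of 0.43 and 0.0667.

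Other groups of members were taken by their place in the ribosome, and their calls are counted beside the 7.75% and 12.7% of all genes called in cDC1 Xbp1-Ire1 KO over WT and over Xbp1 KO. Of 8 tested genes around the exit tunnel, Rpl26 among them, 1 was called over WT (12.5%) and 2 over Xbp1 KO (25.0%), and 5, 7 and 7 were higher in cDC1 in the 3 genotypes. Of 14 genes of the small subunit head, 0 and 2 (14.3%) were called in the same comparisons, and 11, 13 and 14 between cell types. Of 6 genes of the mRNA channel these counts were 0 and 1 (16.7%), and 5, 6 and 6. Of 4 X-linked members 0 were called between genotypes, and 3, 4 and 4 between cell types. The cell type counts of these groups and of the stalk compare with 20%, 18.4% and 20.5% of all genes called higher in cDC1. Of the 81 members, 72.8%, 91.4% and 93.8% were called higher there, in the order WT, Xbp1 KO and Xbp1-Ire1 KO.

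Paralogs replace a ribosomal protein in some tissues, and 4 pairs could be followed. Rpl22l1, the paralog of the large subunit gene Rpl22, reached 24.6 ± 2.3% of the CPM of Rpl22 in cDC1 WT, 23.03 ± 5.4% in Xbp1 KO and 31.8 ± 1.9% in Xbp1-Ire1 KO (SD, n = 3 each), and the last group lay above the other 2 without overlap. It was 29.8 ± 5.7% (n = 4) in cDC2 WT. The log2 fold change of Rpl22l1 in cDC1 Xbp1-Ire1 KO over WT was 0.74 with an adjusted p of 0.0943 and is not called. Rpl7l1, whose human protein is found in precursors of the large subunit, stood at 137 to 211 CPM over all 19 libraries. It was called in none of the 12 tests, with a log2 fold change of 0.14 between the cell types in WT, where its parent Rpl7 differed by 0.42 (adjusted p = 0.0279). In cDC1 Xbp1-Ire1 KO its level was 22.4 to 29.2% of that of Rpl7, beside 30.3 to 41.4% in cDC1 WT, without overlap. The cDC1 Xbp1 KO libraries, at 25.5 to 38.8%, overlapped both of these groups. Rps4l reached 7.62 ± 1.3% of Rps4x in cDC1 WT (n = 3) and 4.54 ± 1.7% in cDC2 WT (n = 4). These groups overlapped, at 6.16 to 8.74% and 2.59 to 6.53%. The means of cDC1 and cDC2 were 5.02% and 4.76% in Xbp1 KO and 6.10% and 4.45% in Xbp1-Ire1 KO.

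The pair Rps27 and Rps27l is shown in sequence because the counts of the parent were close to 0. Rps27l stood at 64.7 to 288 CPM while Rps27 stood at 0.345 to 2.81. The first 60 bases of the coding sequences (GENCODE M21, GRCm38) are given from the start codon, with the bases that differ between the genes in capitals.
Rps27, chromosome 3, minus strand: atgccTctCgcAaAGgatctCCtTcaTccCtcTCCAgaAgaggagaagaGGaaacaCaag
Rps27l, chromosome 9, plus strand: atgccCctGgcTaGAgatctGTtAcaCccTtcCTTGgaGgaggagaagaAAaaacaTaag
They differ at 18 of these 60 bases, and at 60 of 252 over the whole coding sequence (76.2% identical). Rps27l was higher in cDC1 than in cDC2 in WT cells by 0.80 (SE 0.20, adjusted p = 0.00283) and was called in no comparison of genotypes, where it stood at 155, 131 and 183 CPM in cDC1 WT and at 288, 147 and 241 in Xbp1-Ire1 KO. Levels of Rps27 rest on 5 to 39 counts per library, and the part of its shared sequence in them was not tested.

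The word CTGCAG, which as CUGCAG lies at the site that IRE1 cuts in Xbp1 mRNA and in other targets, was searched on the sense strand of the members' transcripts. It stood in 28 of 80 principal transcripts (35%). Among transcripts of 389 to 1599 bases it stood in 24 of 72 members (33.3%) and in 57.2% of 6079 protein-coding genes. Of the 13 members that rose in cDC1 Xbp1-Ire1 KO over Xbp1 KO, 8 hold the word and 5, Rpl6, Rps19, Rpl17, Rpl31 and Rps15, do not. It is shown in capitals with 12 bases on either side for 3 of the 8, counted in bases of the coding sequence to the first C of the word.
Rpsa, chromosome 9, base 22: gcccttgacgtcCTGCAGatgaaggaggag
Rpl10a, chromosome 17, base 97: gagacggtggagCTGCAGatcagcctgaag
Rpl37a, chromosome 1, base 224: acaacaccacctCTGCAGtcacagtgaagt
A match is a match of letters. Rpl6 and Rps19, which had the smallest adjusted p of the 13, have none, and the fold of the RNA around the word was not examined.

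The wider set of ribosome and translation genes was described by lists made with the results on these data already known. Of 3 tested ribosomal genes that the symbol rule leaves out, Gnb2l1, the gene of the scaffold protein RACK1 on the small subunit, moved most. It had 453, 405 and 284 CPM in the cDC1 WT libraries, 172, 170 and 235 CPM in the Xbp1 KO and 488, 423 and 572 CPM in the Xbp1-Ire1 KO libraries. It fell in Xbp1 KO by 0.99 (SE 0.19, adjusted p = 0.00426) and rose between the knockouts by 1.38 (SE 0.19, adjusted p = 0.00036), and the latter change was larger in cDC1 than in cDC2 by 1.13 (adjusted p = 0.0227). Rpl36al, a gene for a near-identical form of the protein of Rpl36a, fell in cDC1 Xbp1 KO by 0.70 (SE 0.16, adjusted p = 0.0173).

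Of 13 translation genes whose mRNAs also carry the pyrimidine tract, 1 fell in cDC1 Xbp1 KO over WT, 2 rose in Xbp1-Ire1 KO over WT and 4 over Xbp1 KO. These are 7.69%, 15.4% and 30.8% of the list, beside 11.2%, 7.75% and 12.7% of all genes called. The one that fell was Eef1g, a subunit of the elongation factor that reloads eEF1A. It had 326, 290 and 248 CPM in the cDC1 WT libraries, 115, 109 and 118 CPM in the Xbp1 KO and 381, 396 and 438 CPM in the Xbp1-Ire1 KO libraries. Its log2 fold change was -1.35 in Xbp1 KO over WT (SE 0.13, adjusted p = 1.66e-05) and 1.85 between the knockouts (SE 0.13, adjusted p = 1.17e-06), a change larger in cDC1 than in cDC2 by 1.75 (SE 0.18). Its 3 Xbp1 KO libraries lay close together, replicate 3 included. Eef1a1 rose in Xbp1-Ire1 KO over WT by 0.69 (SE 0.13).

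The factors that build and start ribosomes are counted in the same 3 comparisons, in which 11.2%, 7.75% and 12.7% of all genes were called. Of 58 ribosome biogenesis genes, 4 rose and 2 fell in cDC1 Xbp1 KO over WT, 14 rose in Xbp1-Ire1 KO over WT and 6 over Xbp1 KO, which are 10.3%, 24.1% and 10.3% of the list, with a median of 0.37 in the second of these. Of 32 initiation factors, 2, 5 and 7 rose, and 1 fell in the last, or 6.25%, 15.6% and 25.0% called. Eif2s2, a subunit of the factor that brings the initiator tRNA, had 72.0, 82.2 and 113 CPM in the WT, 164, 167 and 170 CPM in the Xbp1 KO and 353, 252 and 318 CPM in the Xbp1-Ire1 KO libraries, log2 fold changes over WT of 0.90 (adjusted p = 0.00477) and 1.79 (adjusted p = 3.81e-05). Of 77 mitochondrial ribosomal protein genes, 4 fell in Xbp1 KO over WT, 2 rose in Xbp1-Ire1 KO over WT and 19 rose over Xbp1 KO, or 5.19%, 2.6% and 24.7%, the first pair below the share of all genes. Between cell types 40, 28 and 44 were higher in cDC1 in WT, Xbp1 KO and Xbp1-Ire1 KO cells. In the same order, 20%, 18.4% and 20.5% of all genes were called higher in cDC1. Of 19 genes of RNA polymerase I, which makes ribosomal RNA, 2 (10.5%) rose between the knockouts and 0 were called against WT. None of these 4 lists had a call in the cDC2 genotype comparisons (0.103%, 0.0258% and 0.0343% of all genes).

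Of 26 regulators of ribosomal protein synthesis, 1 rose in cDC1 Xbp1 KO over WT, 2 rose and 1 fell in Xbp1-Ire1 KO over WT, and 2 rose and 2 fell between the knockouts. These are 3.85%, 11.5% and 15.4% of the list, beside the same 11.2%, 7.75% and 12.7% of all genes. The first was Eif4ebp1, the translation repressor that mTORC1 phosphorylates. It had 36.9, 48.8 and 31.3 CPM in the WT, 77.1, 70.4 and 88.4 CPM in the Xbp1 KO and 184, 165 and 176 CPM in the Xbp1-Ire1 KO libraries, log2 fold changes over WT of 1.00 (SE 0.16, adjusted p = 0.00164) and 2.17 (SE 0.17, adjusted p = 5.01e-06). Sesn2, an inhibitor of mTORC1, rose in Xbp1-Ire1 KO over Xbp1 KO by 1.24 (SE 0.14, adjusted p = 8.81e-05). Myc was called in no comparison, at 43.3, 51.5 and 20.8 CPM in cDC1 WT and 60.6, 53.4 and 58.3 in Xbp1-Ire1 KO (adjusted p = 0.22), and Larp1 in no comparison of genotypes, with 0.43 (SE 0.12, adjusted p = 0.00502) between cell types in Xbp1 KO cells. Immediate early genes, 24 in number, which respond to handling and stimulation, summed to 13907 to 18669 CPM over the cDC1 WT, 24818 to 30046 CPM over the Xbp1 KO and 10978 to 16559 CPM over the Xbp1-Ire1 KO libraries. In cDC2 the sums were 18522 to 31669, 32452 to 39211 and 26725 to 33097 CPM in the same order. Within each cell type the Xbp1 KO libraries had the highest median sum and the lowest median ribosomal protein share. For WT, Xbp1 KO and Xbp1-Ire1 KO these shares were 3.18, 3.01 and 4.70% in cDC1 and 2.32, 1.96 and 2.19% in cDC2. In cDC1 the Xbp1 KO shares lay on either side of WT. Of the 24 genes, 7 rose and 0 fell in cDC1 Xbp1 KO over WT, where 11.2% of all genes were called. In cDC1 Xbp1-Ire1 KO 5 fell and 0 rose over WT, and 15 fell and 0 rose over Xbp1 KO (7.75% and 12.7%). The part of these genes in the ribosomal values was not tested.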

How the data were processed

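Bulk RNA was sequenced from spleen cDC1 and cDC2 cells in 19 libraries, with groups taken from the labelled genotype and cell type. The 2 deposited count tables hold raw counts per gene symbol. The deposited normalized tables hold the authors' log2 CPM for 11059 genes (cDC1) and 11441 genes (cDC2). The submitters' processing notes list mm10, TopHat2 2.1.0, limma 3.42.2, Trimmomatic 0.35, FastQC 0.11.4 and SAMtools 0.1.19, in no stated role. No source used here states how reads were counted.

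Counts were tested with edgeR 4.0.16 in R 4.3.3 (filterByExpr with a minimum count of 10 and total of 15, TMM scaling, quasi-likelihood F test, Benjamini-Hochberg adjustment over 11353, 11646 or 12185 tested genes for cDC1, cDC2 or all libraries). Genotypes were compared in a fit of the cell type's libraries, and cell types and interactions in a fit of all 19. A standard error is the absolute log2 fold change over the square root of F. Member CPM are TMM-scaled over all 19 libraries, marker sums are unscaled, and shares are of all counts. Alternatives were DESeq2 1.42.0, its size factors, library totals, scaling without the members, other filters, limma 3.58.1 on the deposited log2 values, a replicate block, fewer groups, only the fl-fl or only the WT-named WT libraries, and leaving out single libraries. The fits were tested on simulated counts.

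The members and lists were chosen with earlier results of these data known. Named in each comparison were up to 3 called members per subunit and direction with the smallest adjusted p, then paralogs and their parents, the stalk, the 5S particle, Rpsa, Fau and Rps27a, the 5 highest and 5 lowest length-scaled members, up to 2 called genes per list and direction, and Rack1, Myc, Larp1, Xbp1 and Ern1. Fau and Rps27a were called in 0 genotype comparisons. Rpl3, Rpl7a, Rpl12, Rpl31, Rpl35, Rpl37a, the calls without a library and Rpl10 in cDC2 were named after their values were seen. Some genes that the rule names are not reported here.

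Replicate numbers come from the titles. Deviations of same-numbered libraries correlated above 0.1 in every pair only for WT cDC1 against cDC2 (r = 0.132, 0.258 and 0.202 over genes). Unlike-numbered WT pairs of the same kind of description name had r = 0.162, 0.0488 and 0.271. Pairs of unlike kinds ran from -0.312 to -0.105. The block by title number left 59 members called there. The block by description number left 52, with 3876 of all genes called, beside 4971 in the main fit. No 2 libraries of a group agreed within sampling noise, with a chi-square per gene of 9.41 to 80.0 over 21 pairs. The highest values were those of WT pairs of unlike description name, 76.4 and 80.0 in cDC1 and 55.5 to 73.3 in cDC2. The fl-fl named pairs gave 14.3 (cDC1) and 26.1 (cDC2) and the WT-named cDC2 pair 16.1. Knockout pairs reached at most 39.65. Sequences are from RefSeq on GRCm38.p6, of which 60 members had an entry, and GENCODE M21 on GRCm38.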

Additional observations from a re-analysis of the deposited data

Results flagged for a closer look

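Rpl35, a protein at the exit of the ribosomal tunnel, stood at 243, 165, 249 and 253 CPM in the cDC2 WT libraries. Replicate 2, at 165 CPM, lay far below the others: its gap to the nearest library took 0.904 of the range of the group, above the 95% critical value of Dixon's test for 4 samples. It was the only 1 of 81 members so flagged in cDC2 WT, the one group large enough to be examined. Chance flags about 1 in 20 groups, a larger share than this 1 of 81.

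The change of Rpl6 between Xbp1-Ire1 KO and Xbp1 KO differed between the cell types. It was larger in cDC1 than in cDC2 by 0.79 on the log2 scale (SE 0.19, edgeR adjusted p = 0.0264), with a log2 fold change of 0.84 in cDC1 and 0.04 in cDC2. All 3 cDC1 Xbp1-Ire1 KO libraries lay above all 3 cDC1 Xbp1 KO libraries, while those of cDC2 overlapped.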

How the results depend on the processing

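None of the named called genes reversed its direction under the alternatives run. In the main fits 1270, 880 and 1437 of all genes were called in the 3 cDC1 comparisons that follow. In cDC1 Xbp1 KO against WT (1 member called) the count was 0 with the compared groups alone, 0 against the WT-named library, 0 by limma on the deposited log2 values and 6 against the fl-fl named libraries, 2 higher and 4 lower. In Xbp1-Ire1 KO against WT (6) it was 26 by DESeq2, 21 with library totals, 20 without a filter, 3 with the compared groups alone, 16 against the fl-fl named and 2 against the WT-named libraries, and 1 by limma. In Xbp1-Ire1 KO against Xbp1 KO (13) it was 25 by DESeq2, 20 without a filter, 20 with the compared groups alone and 2 by limma. In cDC2 Xbp1 KO against WT (0) it was 3, all lower, against the fl-fl named libraries, and in WT cDC1 against cDC2 (59) it was 31 with the WT-named libraries. Among all genes, cDC1 Xbp1 KO against WT had 828 calls with the compared groups alone, 632 by limma and 2926 against the fl-fl named libraries. Xbp1-Ire1 KO against WT had 1371 by DESeq2, 871 with library totals, 1056 without a filter and 575 with the compared groups alone. It had 1966 against the fl-fl named libraries and 464 by limma. Between the knockouts there were 1977 by DESeq2, 1666 without a filter, 2239 with the compared groups alone and 823 by limma. The causes were not tested.

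The replicate block, whose numbers pair no samples by the labels, gave 11 in cDC1 Xbp1-Ire1 KO against WT, beside 847 calls among all genes. For the interactions it gave 1 (Rpl17) for Xbp1-Ire1 KO against WT, where DESeq2 and library totals also gave 1, and 2 (Rpl6, Rps19) between the knockouts. Blocking by the number in the description name, added after seeing the data, gave 3 there (Rpl6, Rps19, Rpsa). The block changed no other count by over 1.5 times.

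With 1 library left out the counts ran from 0 to 6 (cDC1 Xbp1 KO against WT), 1 to 30 (Xbp1-Ire1 KO against WT) and 2 to 37 (between the knockouts), and stayed at 0 in the cDC2 genotype comparisons. Between cell types the ranges were 46 to 70 (WT), 54 to 74 (Xbp1 KO) and 64 to 79 (Xbp1-Ire1 KO). For the interactions they were 0 to 0, 0 to 1 and 0 to 2 in the order of the report. In the fits with only the WT-named WT libraries, cDC1 WT held a lone library, and its spread was taken from the other groups. Of the named calls 697 results kept their side of the threshold and 55 lost it.

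Library totals moved the median of all genes in WT cDC1 against cDC2 from -0.04 to -0.21, and the members' medians to 0.41 (large) and 0.51 (small), from 0.58 and 0.68. The small subunit median of the interaction between the knockouts was 0.10, and ran from -0.05 without cDC1 Xbp1-Ire1 KO replicate 1 to 0.33 without cDC1 Xbp1 KO replicate 3, so its sign depended on single libraries. Few counts limit Rpl30, Rps27 and Rpl34, and 3 or 4 libraries a group, some of which stood apart, limit all members.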
